A study of Mus musculus with 6 samples.

Results

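Txnip, the gene of thioredoxin-interacting protein, was measured together with its relatives among the alpha-arrestins (Arrdc1, Arrdc2, Arrdc3 and Arrdc4) and with the Mondo transcription factors that act on it (Mlx, Mlxip and Mlxipl). The probe sets were those that the platform annotation assigns to one of these genes alone. They numbered 11 of 22626 tested and covered 6 of the 8 genes, with 3 for Arrdc1, 2 each for Txnip, Arrdc4 and Mlx, and 1 each for Mlxip and Mlxipl. The expression of Arrdc2 and Arrdc3 was not analysed here. The family was picked on the measured rise of Txnip between these same arrays, so the differences of the members are given as a description, without p-values, and the calls counted among them are no independent support.

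Mouse cells of a line called PPP3R1 had been starved for 6 h (3 arrays) or kept in normal medium (3 arrays, called control here). PPP3R1 is also the symbol of the calcineurin B subunit, and the labels give no genotype for the line and no composition of the starvation medium. The titles and the design take the control from the PPP3R1 line itself, while the protocol fields name wild-type mouse embryonic fibroblasts as the cells in normal medium, and this conflict touches every difference that follows. Titles speak of biological replicates but not of separate cultures, so the spread between arrays may be partly technical. In bulk RNA, more cells with a transcript and more transcript per cell cannot be told apart.

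TXNIP binds and inhibits thioredoxin, the small protein that reduces disulphides, and it limits glucose uptake by drawing glucose transporters from the cell surface. The ARRDC proteins share its arrestin fold and recruit ubiquitin ligases of the NEDD4 family to membrane proteins that are to be internalised or packed into vesicles. MondoA (encoded by Mlxip) and ChREBP (Mlxipl) pair with Mlx, sense phosphorylated sugars and bind paired E-box letters called a carbohydrate response element. Txnip and Arrdc4 are their best known shared targets.

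The sequence before the gene start is shown for the 3 genes with a probe set that was higher in starved cells and for Mlx, whose probe sets were both lower. The sequences come from RefSeq (GRCm38.p6), where all 8 genes matched, and cover the 250 bases before the start on the gene's own strand. Capitals mark CACGTG (the E-box), CACGAG (the variant in the Txnip element), CCAAT (the box bound by NF-Y), GTAAACA (a forkhead motif), and pairs of E-box letters described after the sequences. All were searched on both strands, with the palindromic E-box counted once, and were chosen with the sequences in view. A CACGAG inside a pair is also counted as CACGAG.
Txnip (chr3:96557707-96557956, + strand): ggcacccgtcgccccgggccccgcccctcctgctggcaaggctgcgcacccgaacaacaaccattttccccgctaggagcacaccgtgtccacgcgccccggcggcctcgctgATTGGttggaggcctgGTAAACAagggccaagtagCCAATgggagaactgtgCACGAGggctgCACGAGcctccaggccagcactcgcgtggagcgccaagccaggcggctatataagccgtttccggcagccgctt
Arrdc4 (chr7:68749239-68749488, - strand): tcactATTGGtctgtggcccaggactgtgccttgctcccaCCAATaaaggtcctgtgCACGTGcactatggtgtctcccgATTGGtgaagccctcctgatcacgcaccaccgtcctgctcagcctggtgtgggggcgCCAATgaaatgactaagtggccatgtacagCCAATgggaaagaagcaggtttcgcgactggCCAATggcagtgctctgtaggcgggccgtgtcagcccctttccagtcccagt
Arrdc1 (chr2:24935282-24935531, - strand): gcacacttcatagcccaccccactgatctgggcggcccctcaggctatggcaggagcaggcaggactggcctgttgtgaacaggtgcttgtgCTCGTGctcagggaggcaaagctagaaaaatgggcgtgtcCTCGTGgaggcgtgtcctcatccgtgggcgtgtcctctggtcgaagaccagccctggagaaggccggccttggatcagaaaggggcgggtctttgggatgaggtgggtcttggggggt
Mlx (chr11:101087040-101087289, + strand): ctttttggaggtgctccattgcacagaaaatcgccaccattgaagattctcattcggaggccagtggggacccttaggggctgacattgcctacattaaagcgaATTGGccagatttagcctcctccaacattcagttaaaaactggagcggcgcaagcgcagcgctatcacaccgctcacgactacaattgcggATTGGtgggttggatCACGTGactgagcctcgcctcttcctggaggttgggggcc

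The Txnip window held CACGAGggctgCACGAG from 85 to 69 bases before the start. Among the 11 windows listed for the 8 genes this was the only match to CACGTGNNNNNCACGTG with at most 2 of the 12 fixed letters changed, and 0.779% of the 32851 windows of this length in the RefSeq table held a match. The Txnip window also held GTAAACA, found in 3.17% of windows, and 2 copies of CCAAT, found at least once in 33.8%. The Arrdc4 window held 1 CACGTG and 6 copies of CCAAT, the Arrdc1 window 2 copies of CACGAG and no CCAAT, and the Mlx window 1 CACGTG and 2 copies of CCAAT. The E-box was present in 6.02% of all windows and CACGAG in 5.37%. An E-box thus stood before Mlx, and in a window of Mlxipl, as well as before Arrdc4. Among the 11 windows of the 8 genes, only that of Txnip held GTAAACA. A match describes these letters and is no measurement of binding.

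The RMA values of the arrays are on a log2 scale, on which a step of 1 is a doubling. Fibroblast identity was checked first: 11 of 12 fibroblast marker genes lay above 5 in control cells, the level under which probe sets were treated as dim, with a median of 12.30, and Thy1 was the exception at 4.80. All 7 endothelial markers lay under 5, as did 6 of 8 epithelial markers, 4 of 8 leukocyte markers, among them Ptprc at 3.07, and 3 of 8 muscle and neural markers. The other leukocyte markers lay above 5 in control cells: Cd14 at 8.34, Cd68 at 6.25, Csf1r at 6.18 and Lyz2 at 6.07. So did the other muscle and neural markers, among them Des (6.63) and Tubb3 (6.26), and the epithelial genes Cldn3 (6.01) and Krt8 (5.16). Of these non-fibroblast genes, 6 were higher and 1 lower in starved cells in limma's test (adjusted p under 0.05), with the neural genes Map2 (0.74 ± 0.09, SE) and Tubb3 (0.46 ± 0.09), the epithelial cadherin gene Cdh1 (0.50 ± 0.08, under 5 in both groups) and the macrophage gene Cd68 (0.43 ± 0.06) among the higher, and Cd14 lower by 0.32 ± 0.06. Fibroblast markers were higher in 4 and lower in 4, among them Lum, the gene of the proteoglycan lumican (-2.05 ± 0.06), Pdgfrb (-0.81 ± 0.07), Col1a1 (0.57 ± 0.06) and Col5a1 (0.48 ± 0.05). The part of other cell types in the results was not tested. Control replicate 3 stood apart on the second principal component (-14.6, against 8.78 and 5.16 in the other control arrays), an axis with 5.81% of the variance, and it was left out in turn among the alternatives.

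Txnip was higher in starved cells in both of its probe sets. Probe set 1415996_at read 10.43, 10.38 and 10.42 in the control arrays and 12.11, 12.16 and 12.12 in the starved arrays. The groups did not overlap: the lowest starved array lay 1.68 above the highest control array, beside an SD of 0.03 within each group. Starved minus control was 1.72 ± 0.05 (SE, n = 3 per group), which is 3.29-fold. Probe set 1415997_at, matched to the same accession, read 10.14, 10.23 and 10.28 in control and 11.99, 12.07 and 12.07 in starved cells. Its difference was 1.82 ± 0.06, or 3.54-fold, and its groups lay 1.70 apart. The readings of these probe sets thus differ in size by 0.11, and they held ranks 46 and 35 among all 22626 differences ordered from the highest.

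**Figure D1:**
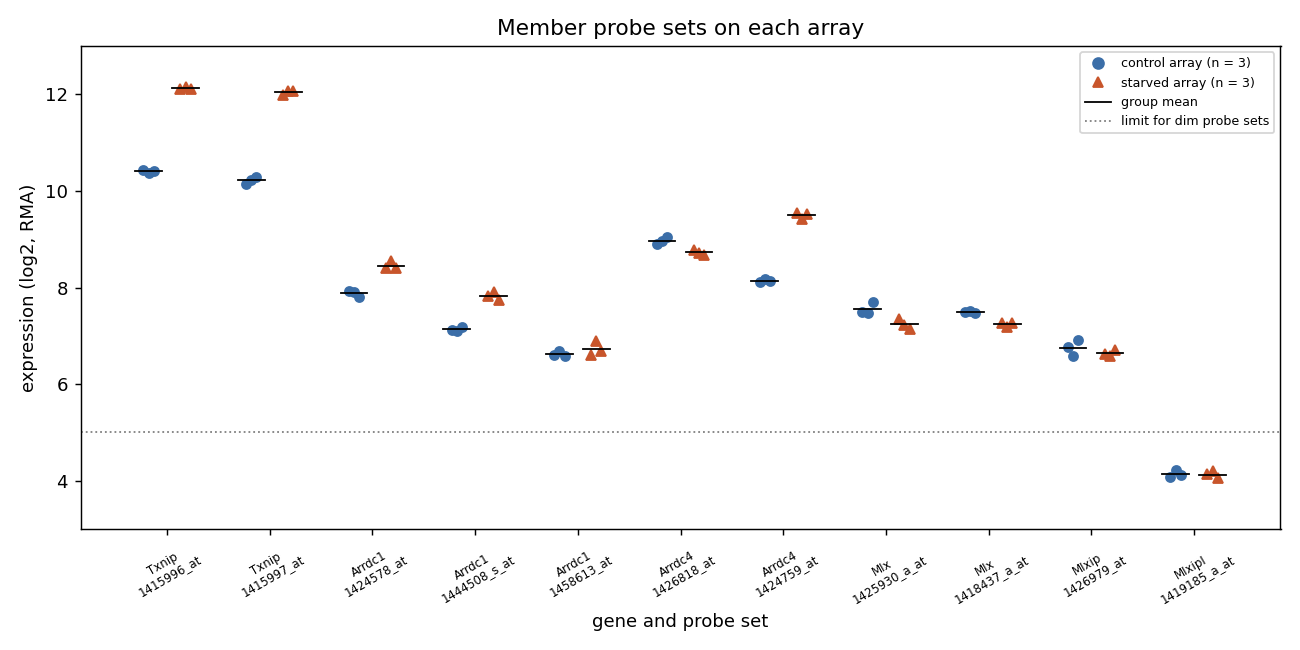
Expression (log2, RMA) of the 11 member probe sets on each array, with control arrays as circles, starved arrays as triangles and group means as bars (n = 3 per group). Both Txnip probe sets and Arrdc4 1424759_at are clearly separated between groups, and Mlxipl lies under the dotted line at 5; levels of different probe sets are not comparable.

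Among the other alpha-arrestins, Arrdc4 gave opposite readings. ARRDC4 is the closest relative of TXNIP in its control by the Mondo factors and also lowers glucose uptake. Probe set 1424759_at read 8.11, 8.17 and 8.13 in control and 9.55, 9.41 and 9.53 in starved cells. All starved arrays lay above all control arrays, with a difference of 1.36 ± 0.06, or 2.56-fold, at rank 154 of all differences. Probe set 1426818_at, made from another cDNA accession, read 8.90, 8.96 and 9.05 in control and 8.78, 8.72 and 8.68 in starved cells. Here all starved arrays lay below all control arrays, by 0.12 at the nearest, and the difference was -0.25 ± 0.06, which was no longer called without starved replicate 3 (-0.22).

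Neither Arrdc4 probe set was dim, and the 2 differences lay 1.60 apart. A spread this large or larger was found in 20 of 4956 genes with several probe sets (0.404%), whose median spread was 0.17. Of 1795 genes with at least 2 called probe sets, 137 (7.63%) had calls in both directions. The mean of both Arrdc4 probe sets differed by 0.56 ± 0.05, so the sign of the gene depends on which probe set stands for it. The transcripts that each probe set reads were not analysed here.

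**Figure D2:**
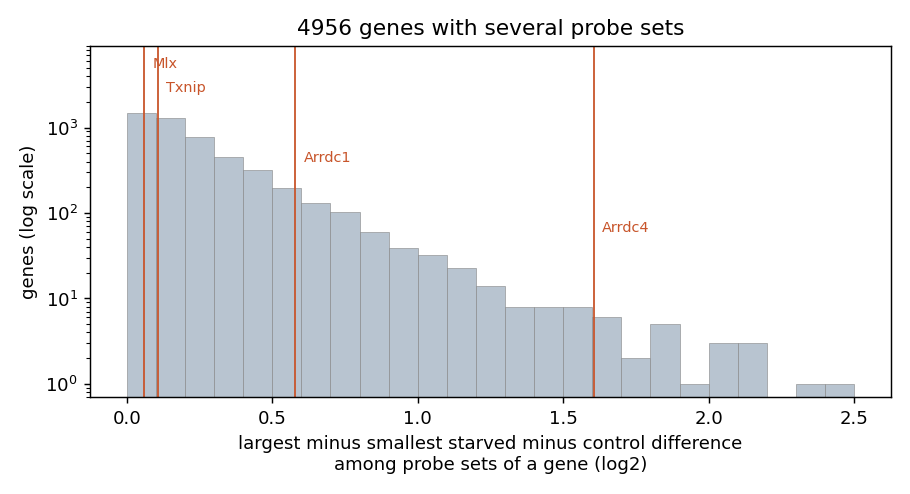
Number of genes (log scale) by the spread of the starved minus control difference over their probe sets (log2), for 4956 genes with several probe sets. Vertical lines mark Mlx (0.06), Txnip (0.11), Arrdc1 (0.58) and Arrdc4 (1.60), the last in the sparse right tail.

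Arrdc1 encodes the alpha-arrestin that sits at the plasma membrane and drives the budding of small vesicles with the help of TSG101. Its brightest probe set, 1424578_at, read 7.94, 7.90 and 7.81 in control and 8.40, 8.55 and 8.40 in starved cells, a difference of 0.57 ± 0.07, or 1.48-fold. Probe set 1444508_s_at read 7.13, 7.10 and 7.18 in control and 7.83, 7.91 and 7.73 in starved cells, a difference of 0.69 ± 0.06, with no overlap of the groups in either probe set. The suffix _s_at marks probes that can match several transcripts. The third, 1458613_at, which shares its accession with the second, read 6.59, 6.68 and 6.59 in control and 6.61, 6.89 and 6.69 in starved cells. These groups overlapped and the difference of 0.11 ± 0.08 was not called.

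Mlx, the obligate partner of both Mondo factors, was slightly lower in starved cells. Probe set 1425930_a_at read 7.48, 7.46 and 7.71 in control and 7.34, 7.22 and 7.15 in starved cells (-0.31 ± 0.09), and 1418437_a_at read 7.50, 7.52 and 7.48 against 7.27, 7.19 and 7.26 (-0.26 ± 0.05). The groups did not overlap in either, and control replicate 3 was the highest array in the first but the lowest control array in the second. The call of 1425930_a_at was lost without starved replicate 2 (-0.31) and without starved replicate 3 (-0.27), while 1418437_a_at kept its call throughout the leave-one-out fits.

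The sugar-sensing subunits differed little. Mlxip, which encodes MondoA, read 6.76, 6.58 and 6.91 in control and 6.62, 6.58 and 6.71 in starved cells. All starved arrays lay inside the range of the control arrays, and the difference of -0.11 ± 0.09 was not called. Mlxipl, which encodes ChREBP, the form known from liver and fat, read 4.08, 4.23 and 4.12 in control and 4.13, 4.20 and 4.05 in starved cells. All of its values lie under 5, so the difference of -0.01 ± 0.07 describes a dim probe set and does not bear on whether the transcript changed; its sign turned under a second quantile normalization (0.012).

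Over the 11 probe sets, 5 were called higher and 3 lower at an adjusted p under 0.05 in limma, where 20.3% of all probe sets were called higher and 19.2% lower. The same 5 and 3 had groups that did not overlap, which held for 25.4% of all probe sets in the higher and 25.0% in the lower direction. Because Txnip in this comparison chose the set, nothing is read from these counts.

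**Figure D3:**
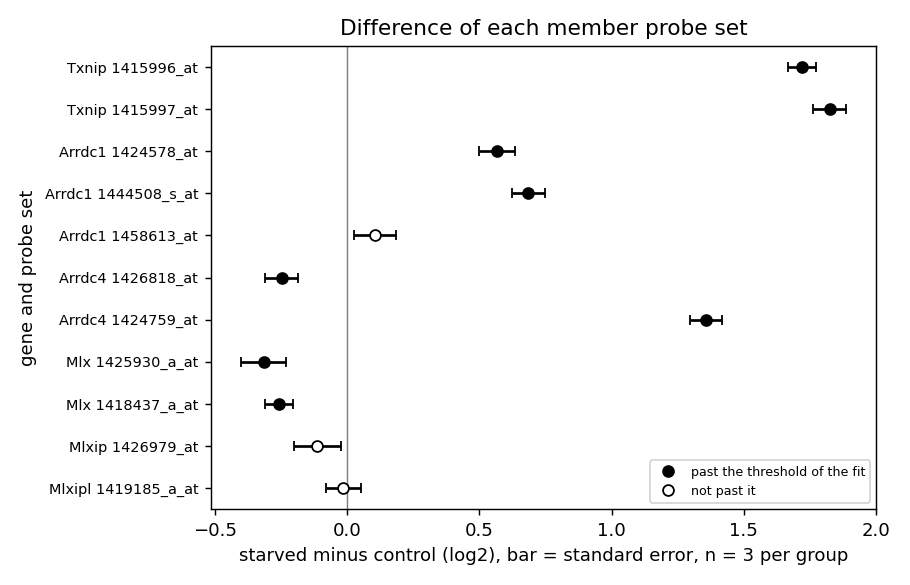
Starved minus control difference (log2) of each member probe set with its standard error (n = 3 per group); filled points passed an adjusted p of 0.05 in limma. Txnip stands at 1.72 and 1.82, the Arrdc4 probe sets at 1.36 and -0.25, and the Mondo factors between -0.31 and -0.01.

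Genes whose values followed Txnip were sought among 8650 genes with a mean of at least 5, leaving out the family members and predicted or clone names. The closest were found by the root mean square distance between values centred on each gene's mean over the 6 arrays. They were Dlgap5 (distance 0.05), a mitotic spindle gene, Anxa8 (0.05), an annexin, Relb (0.06), an NF-kappaB subunit, Gadd45b (0.06), a stress-induced signalling gene, and Cdc25b (0.06), a phosphatase that starts mitosis. Their differences ran from 1.64 (Gadd45b) to 1.78 (Anxa8), and the other Txnip probe set lay at a distance of 0.08. Gadd45b had 3 probe sets, of which 1 differed by 0.29 ± 0.07 and the others by 1.64 and 1.75, so its closeness does not hold for all of them. The measure mostly ranks genes by how near their difference comes to 1.72 and describes these arrays only.

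**Figure D4:**
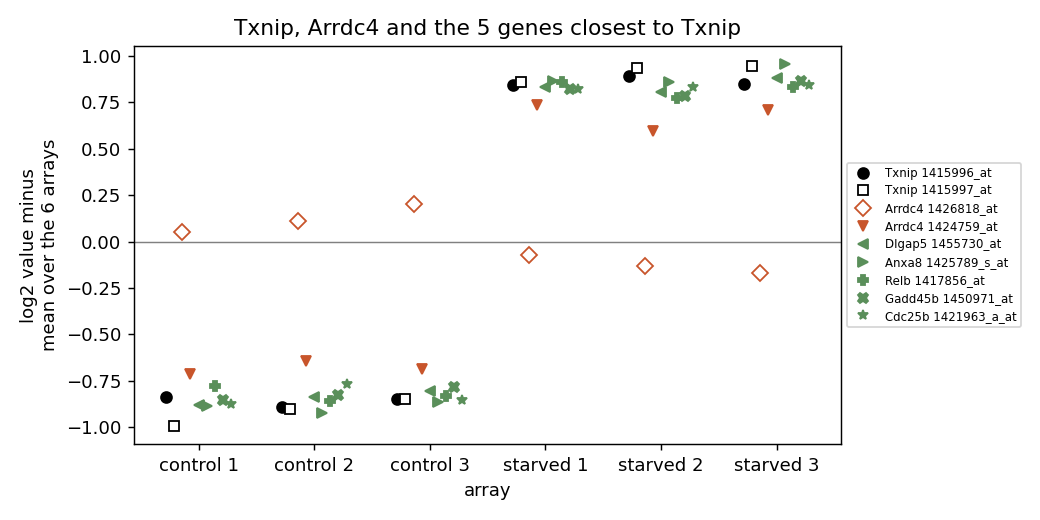
Log2 values minus the mean over the 6 arrays, per array, for both Txnip probe sets, both Arrdc4 probe sets and the 5 genes closest to Txnip. Txnip and these 5 genes overlie each other, Arrdc4 1424759_at shows the same split at a smaller size, and Arrdc4 1426818_at runs the other way.

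Genes known to act with this family were followed in 7 lists with 90 genes, of which 73 were measured, each by its brightest probe set. In limma's test 16 of the 73 rose and 19 fell (adjusted p under 0.05), against 20.8% and 20.1% of all 12393 genes, so the lists together lay near the background. They are described one by one, beside a median difference of -0.01 over all genes.

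Of 19 measured genes that the Mondo factors are known to switch on with glucose, 10 fell and 1 rose, with a median difference of -0.34. Hk2, the hexokinase that traps glucose in the cell, read 8.68, 8.71 and 8.53 in control and 6.48, 6.24 and 6.36 in starved cells, so that the highest starved array lay 2.05 below the lowest control array (-2.28 ± 0.08, limma adjusted p = 1.81e-06). Elovl6, a fatty acid elongase, fell by 1.80 ± 0.07 (adjusted p = 2.77e-06) and fatty acid synthase, Fasn, by 1.66 ± 0.08 (adjusted p = 4.56e-06). Klf10, a zinc finger factor, was the member that rose, from 8.40, 8.21 and 8.25 to 9.22, 9.06 and 9.15 (0.86 ± 0.07, adjusted p = 6.52e-05). Me1 (-0.08 ± 0.06) and Acacb (0.22 ± 0.08) did not pass. Enzymes of this list are also targets of SREBP and hypoxia factors, and 5 of the 19 had a control mean under 5. Among these dim genes was Acaca, counted among the 10 that fell, with means of 3.95 in control and 3.61 in starved cells. Txnip and one Arrdc4 probe set were thus higher in cells in which 10 of these 19 genes were lower.

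Among transporters and receptors that alpha-arrestins are known to handle, 3 of 9 fell and 1 rose, with a median of -0.10. Slc2a1, the glucose transporter GLUT1 whose removal from the surface TXNIP promotes, read 9.83, 9.88 and 9.54 in control and 8.10, 7.85 and 7.94 in starved cells. The groups lay far apart although control replicate 3 was the lowest control array, with a difference of -1.79 ± 0.10 (adjusted p = 1.21e-05), and its other probe sets gave -1.75 ± 0.12 and -1.65 ± 0.10. The iron transporter gene Slc11a2 (-0.38 ± 0.05, adjusted p = 0.000713) and Slc2a10 (-0.37 ± 0.07, adjusted p = 0.00355) fell too. Slc2a9, a urate carrier gene, rose by 0.92 ± 0.13 (adjusted p = 0.000840) from a control mean of 4.56, under the limit for dim probe sets. Slc2a8 (-0.10 ± 0.06) and Slc2a4 (-0.13 ± 0.08) did not pass. These are RNA levels, and removal of the proteins from the cell surface was not measured.

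Of 9 genes for NEDD4-family ligases, their adaptors and endosomal partners, 4 rose and 0 fell in limma (1 fell at an unadjusted p under 0.05). The median was 0.18. The ligase gene Wwp2 read 8.63, 8.62 and 8.64 in control and 9.47, 9.39 and 9.50 in starved cells, an almost constant control with a clear step (0.82 ± 0.06, adjusted p = 2.29e-05), while a dimmer Wwp2 probe set fell by 0.38 ± 0.11. Tsg101, the ESCRT subunit recruited by ARRDC1, rose by 0.54 ± 0.07 (adjusted p = 0.000621). Pdcd6ip, which encodes the ESCRT partner ALIX, rose by 0.44 ± 0.07 (adjusted p = 0.00116) and Nedd4l by 0.32 ± 0.06 (adjusted p = 0.00459). Nedd4 (-0.05 ± 0.06) and the adaptor gene Ndfip1 (-0.19 ± 0.07) did not pass in their brightest probe sets, but another Ndfip1 probe set fell by 0.19 ± 0.06 (adjusted p = 0.0352).

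The thioredoxin system, the direct partner of TXNIP, rose in 4 and fell in 2 of 11 genes, with a median of 0.07. Thioredoxin itself, Txn1, rose by 0.38 ± 0.05 (adjusted p = 0.000823) and the mitochondrial reductase gene Txnrd2 by 0.37 ± 0.06 (adjusted p = 0.00178). A dimmer Txn1 probe set had overlapping groups and did not pass (0.07 ± 0.10). The peroxiredoxin genes Prdx4 (-0.23 ± 0.06, adjusted p = 0.0151) and Prdx2 (-0.18 ± 0.06, adjusted p = 0.0450) fell, but a second Prdx2 probe set rose by 0.20 ± 0.06. The nucleoredoxin gene Nxn, counted among the 4, rose by 0.16 ± 0.05 (adjusted p = 0.0444) in its brightest probe set, while its other probe set fell by 0.45 ± 0.06 (adjusted p = 0.000728), so the gene has opposite readings. Txnrd1 (0.01 ± 0.06) and Prdx3 (-0.04 ± 0.05) did not pass. In the brightest probe sets, the difference was 1.30-fold for Txn1, beside 3.29-fold for Txnip. The calls of Prdx2 and Prdx4 were lost on leaving out single arrays: Prdx2 without any of control replicates 1, 2 and 3 or starved replicates 2 and 3 (adjusted p from 0.0787 to 0.149), Prdx4 without starved replicate 2 (adjusted p = 0.0528) or 3 (adjusted p = 0.0585).

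Among other genes with an arrestin fold, 1 of 7 rose and 2 fell, with a median of 0.07. Arrb2, which encodes beta-arrestin 2, read 6.45, 6.22 and 6.57 in control and 7.16, 7.22 and 7.05 in starved cells, with no overlap (0.73 ± 0.10, adjusted p = 0.000585). The endosomal sorting genes Vps26c (-0.43 ± 0.07, adjusted p = 0.00144) and Vps26a (-0.28 ± 0.06, adjusted p = 0.00666) fell, while Vps26b (-0.04 ± 0.05) and Arrb1 (0.23 ± 0.11) did not pass.

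In the network of MAX and MLX partners, 1 of 8 rose and 2 fell, with a median of 0.02. Max, the partner of MYC and counterpart of MLX, read 8.56, 8.57 and 8.46 in control and 7.71, 7.65 and 7.71 in starved cells, with a wide gap between groups (-0.84 ± 0.06, adjusted p = 2.47e-05). Mxd3, a MAX-binding repressor, rose by 0.79 ± 0.09 (adjusted p = 0.000290). Myc fell by 0.22 ± 0.06 (adjusted p = 0.0145), which did not pass when starved replicate 2 or 3 was left out (adjusted p = 0.0553 and 0.0504). Mxd4 (0.11 ± 0.05) and Mxi1 (0.12 ± 0.08) did not pass in their brightest probe sets, but another Mxi1 probe set rose by 0.21 ± 0.07 (adjusted p = 0.0349). Mxd4 1422574_at rose by 0.93 ± 0.07 (limma adjusted p = 3.09e-05) and 1434379_at by 0.17 ± 0.06 (adjusted p = 0.0458). A further, dim Mxd4 probe set did not pass (0.02 ± 0.14). The counts of this list thus hold for the brightest probe sets only.

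Of 10 measured genes of the energy sensor kinase AMPK, the FoxO factors and other regulators or partners of TXNIP, 4 rose and 0 fell in limma (0 fell at an unadjusted p under 0.05 too), with a median of 0.19. Cops5, which encodes the TXNIP partner JAB1, and the nuclear import receptor gene Kpna2 each rose by 0.42 ± 0.06 (adjusted p = 0.000750 and 0.00116). The AMPK subunit gene Prkag1 rose by 0.27 ± 0.05 (adjusted p = 0.00329). Stk11, the gene of the kinase LKB1 that switches AMPK on, rose by 0.20 ± 0.06 (adjusted p = 0.0243), a call lost without control replicate 1 (adjusted p = 0.0722), control replicate 2 (adjusted p = 0.0715) or starved replicate 3 (adjusted p = 0.0900). Foxo3 (-0.08 ± 0.06) and Prkab1 (0.24 ± 0.08) did not pass in their brightest probe sets, and Foxo1 differed by -0.0039 ± 0.07 in its own. A dimmer Prkab1 probe set did pass, at 0.24 ± 0.08 (adjusted p = 0.0422). Both other Foxo3 probe sets fell, by 0.18 ± 0.05 (limma adjusted p = 0.0259) and 0.59 ± 0.18 (adjusted p = 0.0307). The count of 0 that fell thus holds for the brightest probe sets only. A dimmer Stk11 probe set did not pass (-0.11 ± 0.09).

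**Figure D5:**
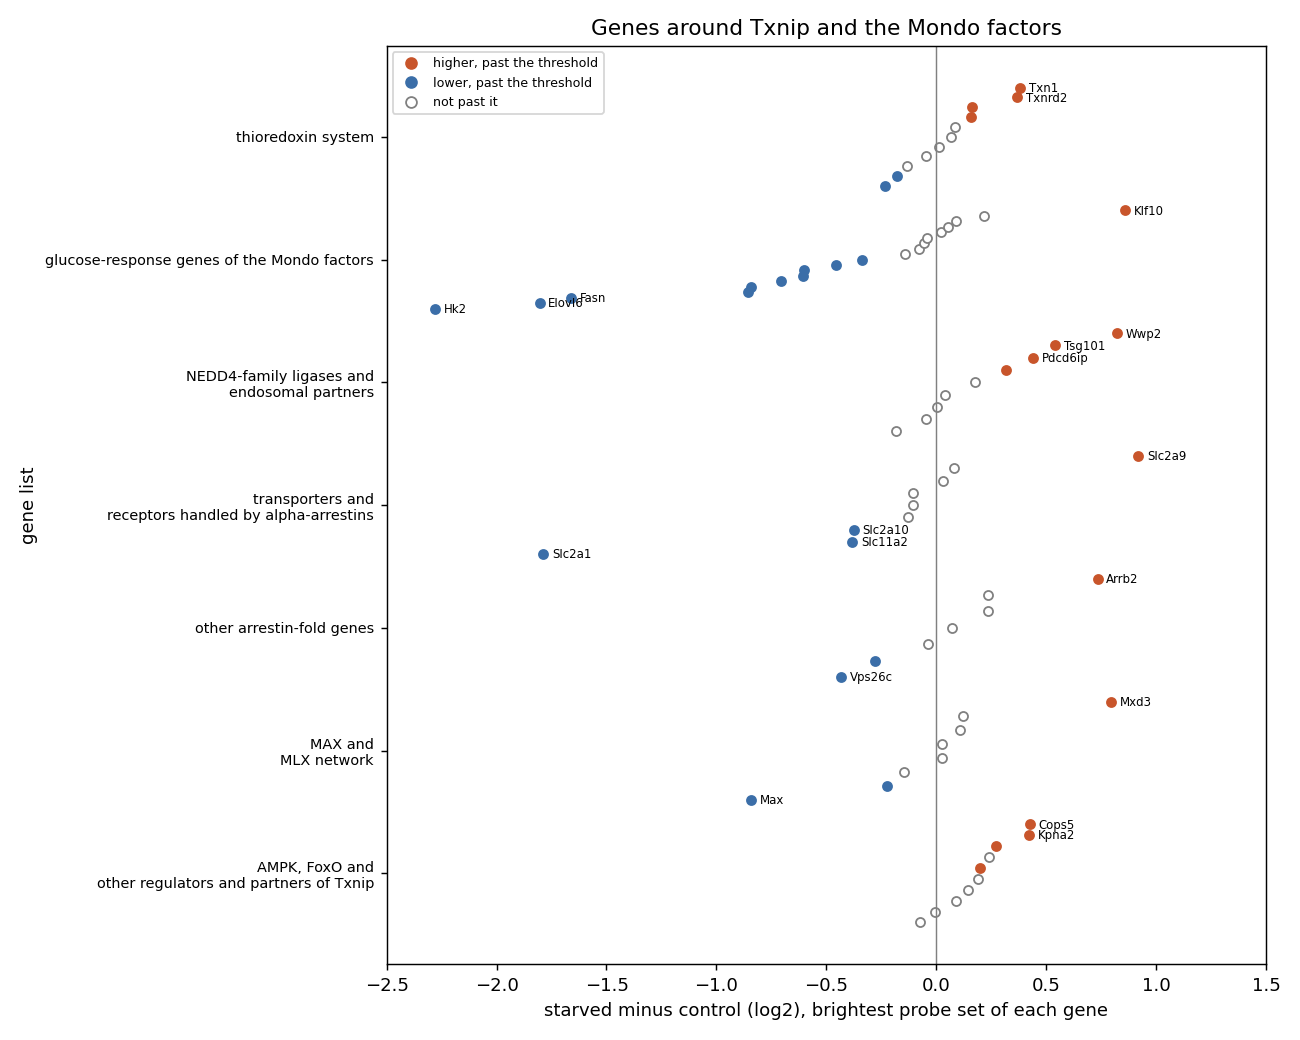
Starved minus control difference (log2) of each measured gene in the 7 lists, by its brightest probe set. Filled points are genes past an adjusted p of 0.05 in limma, and names mark only those of larger difference among the called genes in the text. Glucose-response genes lie mostly to the left, with Hk2 at -2.28 and Klf10 at 0.86, and the called NEDD4-family and AMPK-list genes lie to the right.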

How the data were processed

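The deposited table holds log2 values for 6 Affymetrix mouse arrays, hybridised with biotin-labelled cRNA; per the submitters' processing notes, the authors made them with affy and RMA. RMA makes the arrays' distributions alike (medians 6.74 to 6.78) and so hides a change common to most transcripts. Of 22690 probe sets, 64 controls were left out. The platform annotation named 1 gene for 20380 of the rest, several for 691 and none for 1555. Each of the 12393 genes was represented by its brightest probe set.

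Groups follow the titles. All probe sets were fitted together by limma 3.58.1 (R 4.3.3), using lmFit with eBayes and two-sided p-values with Benjamini-Hochberg adjustment over the whole table. The fit was tested on simulated data. Members, lists and motifs were chosen with earlier results of these data known. Named genes are all member probe sets, up to 4 called genes of largest change and up to 2 uncalled genes of highest level per list, and the 5 genes nearest to Txnip; a few others were named after their values were seen. Alternatives were a filter on dim probe sets, further normalization, moderation, array weights, probe set classes, gene means, a threshold of 0.01, single arrays left out and the replicate number as a block. No batch labels were used here, and a batch equal to the groups cannot be told apart from them. The number of arrays limits the precision. Figures were drawn with matplotlib 3.10.9.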

Additional observations from a re-analysis of the deposited data

How the results depend on the processing

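The number of called member probe sets (8) ran from 6 to 8 under 14 alternatives, and that of called list genes (35), under 15, from 28 with a threshold of 0.01 or without starved replicate 3 to 39 with an intensity trend. Txnip kept its direction and call under each. The values ran from 1.70 to 1.77 for 1415996_at, where 1.77 was the mean of both probe sets, and from 1.78 to 1.86 for 1415997_at. When a gene's probe sets were averaged, Arrdc4 turned from -0.25 to 0.56 and Prdx2 from -0.18 to 0.00996. Arrdc4 1426818_at lost its call without starved replicate 3 (-0.22) and at a threshold of 0.01. With the replicate number as a block, 8168 probe sets were called against 8933, 8 of them members; same-numbered arrays did not deviate together (correlations of -0.09, 0.01 and -0.01), so the numbers are not taken as pairs. Over the named genes and all alternatives, 700 differences kept their direction and side of the threshold, 24 lost their call, 20 gained one (among them Acacb, Ndfip1 and Prkab1) and 12 changed sign. Besides Arrdc4 and Prdx2 these were differences near 0 that passed in no setting: Mlxipl (-0.014; 0.012 with a second quantile normalization, -0.050 to 0.027 with single arrays left out), Txnrd1 (0.011; -0.018 with that normalization, -0.0077 with median centring, -0.00047 with array weights, -0.026 to 0.063 with single arrays left out) and Nedd4 (-0.046; 0.019 with averaged probe sets). Gene means give no count of probe sets.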

Other observations

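Several genes of the lists were read differently by their probe sets, and the brightest probe set used in the counts did not always carry the larger difference. Mxd4, a MAX-binding repressor that also pairs with MLX, differed by 0.11 ± 0.05 without passing in its brightest probe set, but 1422574_at rose by 0.93 ± 0.07 (limma adjusted p = 3.09e-05), from a control mean of 8.49. Its mean over all probe sets was 0.31. Foxo3, a forkhead factor known to act on Txnip, did not pass in its brightest probe set, while 1434832_at fell by 0.18 ± 0.05 (adjusted p = 0.0259) and the dimmer 1450236_at by 0.59 ± 0.18 (adjusted p = 0.0307). Of 5 Pdcd6ip probe sets, 3 rose, by 0.44 to 0.63, and 2 did not pass (-0.14 and -0.05). These probe sets were singled out after their values were seen.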
